A study of Homo sapiens with 28 samples.

Results

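The 145 genomic regions described here carried a peak of H3K27ac, acetylated lysine 27 of histone H3, in all 6 peak lists that are named for empty vector (EV), full-length CAMTA1 or full-length TFE3, and in none of the 4 lists that are named for TAZ4SA or YAP5SA. They were chosen by the measured peaks themselves, from 138757 regions that resulted when peaks of all 14 lists that overlapped or touched were merged. The lists came from chromatin immunoprecipitation followed by sequencing (ChIP-seq) in SW872, a human liposarcoma cell line. Each of 7 labels holds 2 lists, which the methods call biological duplicates, with samples for sequencing made by separate transductions.

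H3K27ac is deposited at active enhancers and promoters, and its gain or loss is a common readout of regulatory activity. TAZ and YAP are the transcriptional coactivators that end the Hippo pathway. When the upstream kinases phosphorylate them they are kept out of the nucleus, and when they enter the nucleus they bind DNA through TEAD factors. TAZ4SA and YAP5SA carry serine-to-alanine changes that block this phosphorylation, so they stay active. TAZ-CAMTA1 and YAP-TFE3 are the gene fusions of epithelioid hemangioendothelioma, a vascular sarcoma, and they join the TEAD-binding end of TAZ or YAP to the end of a transcription factor, CAMTA1 or TFE3.

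All cells were stable, pooled SW872 lines that had been transduced with a retroviral vector and selected with G418, so that the Empty vector cells share the transduction and the selection with the rest. The expressed proteins carried a Flag tag. Per the labels the cells had reached 90% confluence 48 h before they were collected, with an exception for CAMTA1, which was collected at sub-confluence. The study's ChIP methods name no such exception, so the density of the CAMTA1 cells is uncertain. The input libraries were not analysed here.

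The construct in the name of each list differs from the construct in its label for all 14 lists, so both are given. The lists named EV are labelled TAZ4SA, those named CAMTA1 are labelled Empty vector, and those named TFE3 are labelled YAP5SA. The lists named TAZ4SA are labelled TAZ-CAMTA1, and those named YAP5SA are labelled YAP-TFE3. The lists named for the TAZ-CAMTA1 fusion are labelled CAMTA1, and those named for YAP-TFE3 are labelled TFE3. Read by names, the 145 regions therefore had H3K27ac peaks in the vector, CAMTA1 and TFE3 cells and none with active TAZ or YAP. Read by labels, the same regions had peaks in Empty vector, TAZ4SA and YAP5SA cells and none with either fusion protein, which is a different statement about the biology. In the order of the samples the names run alphabetically (CAMTA1, EV, TAZ4SA, TC for TAZ-CAMTA1, TFE3, YAP5SA, YT for YAP-TFE3), and the labels do not. In their names the TAZ4SA and YAP-TFE3 lists are replicates 2 and 3. Which reading is right was not tested. Names are used below, each list carries the replicate number of its label, and the plots give both.

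When the rule was applied to the labels in place of the names, 4288 regions had a peak in all lists labelled Empty vector, CAMTA1 or TFE3. Of these, 0 lacked a peak in every list labelled TAZ4SA or YAP5SA, and 3 did when replicate 1 labelled TFE3, by far the shortest list, was left out. The set of 145 regions thus exists under the names alone.

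The lists differed in length, which sets how easily a region can be present or absent. The lists named EV held 102009 and 98992 peaks, and the other required lists held 30236 to 49855. The excluding lists held 21748 and 48372 peaks (TAZ4SA) and 57505 and 39653 peaks (YAP5SA). The lists named for the fusions held 47974 and 31280 peaks (TAZ-CAMTA1) and 5721 and 47308 peaks (YAP-TFE3). Total reads per library were not given in the lists, so an absent peak here means that no peak was called, not that acetylation was absent. The number of fragments at each summit was solved from the deposited enrichment and p-value. The weakest called summit held 7 or 8 fragments in the excluding lists and 6 to 10 over all 14.

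The regions were rare. They made up 0.104% of all merged regions and 0.933% of the 15544 regions with a peak in all 6 required lists. Of those 15544 regions, 333 had a peak in 1 of the 4 excluding lists, 885 in 2, 3148 in 3 and 11033 in all 4. The reverse rule, a peak in all 4 excluding lists and in none of the 6 required ones, held for 148 of 13542 regions, or 1.09%. The 2 counts are of similar size but rest on different numbers of lists, 6 against 4 required and 4 against 6 excluding.

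The count of 145 depended on single lists. It was 232 without Empty vector replicate 1 (named CAMTA1), 241 without YAP5SA replicate 2 (named TFE3), 254 without TAZ-CAMTA1 replicate 2 (named TAZ4SA) and 316 without YAP-TFE3 replicate 1 (named YAP5SA). Leaving out a list removes a condition, and no count fell below 145. Where each required list had to cover at least 50% of the merged region, 3 regions remained, because the merged boundaries mostly followed the wide peaks named EV. The EV-named lists covered a median of 94.4% and 69.8% of each of the 145 regions, and the other 4 required lists covered 21.3% to 33.2%.

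The absence of peaks was uneven between the constructs. Among the 15544 regions, 563 (3.62%) lacked a peak in both lists named TAZ4SA and 267 (1.72%) lacked one in both named YAP5SA. The 145 regions were 25.8% of the former and 54.3% of the latter. For the fusions, 124 regions (0.798%) lacked a peak in both lists named TAZ-CAMTA1, 250 (1.61%) in both named YAP-TFE3, and 40 in all 4. The shortest excluding list, TAZ4SA replicate 1, lacked a peak at 4251 of the 15544 regions, and the other 3 lacked one at 452 to 1158, so that the 3 longer lists were the more restrictive.

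Most of the 145 regions had a peak in at least 1 list named for the fusions, which the rule did not use, but in each of these lists the share was below that of all 15544 regions with a peak in the 6 required lists. A peak was present at 125 of them in TAZ-CAMTA1 replicate 1 (86.2%, Wilson 95% interval 79.7 to 90.9) and at 80 in replicate 2 (55.2%, 47.0 to 63.0). In YAP-TFE3 replicate 2 a peak was present at 126 (86.9%, 80.4 to 91.4), and in replicate 1, which has 5721 peaks in all, at 3 (2.07%, 0.706 to 5.91). A peak was found in at least 1 of the 4 fusion-named lists at 140 regions (96.6%, against 99.7% of the 15544). The intervals cover counting error over regions only.

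The replicates of a fusion differed by more than the fusions did. The mean share was 70.7% ± 21.9 (SD, n = 2) for TAZ-CAMTA1 and 44.5% ± 60.0 (SD, n = 2) for YAP-TFE3. Both TAZ-CAMTA1 lists had a peak at 75 regions (51.7%) and both YAP-TFE3 lists at 3 (2.07%). No test was run between the fusions, since 2 lists against 2 cannot give an exact two-sided permutation p below 0.333. Without replicate 1 labelled TFE3 the YAP-TFE3 share was 86.9%, so that list alone set the low value.

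Among all 15544 regions with a peak in the 6 required lists, the corresponding shares were 98.9% and 89.6% for TAZ-CAMTA1 replicates 1 and 2, and 27.7% and 98.4% for YAP-TFE3 replicates 1 and 2. Both TAZ-CAMTA1 lists had a peak at 89.3% of them, both YAP-TFE3 lists at 27.7%, and any of the 4 at 99.7%. The 145 regions were thus below this background in every fusion-named list. Over regions with a peak in 0, 1, 2, 3 and 4 excluding lists, the share in TAZ-CAMTA1 replicate 2 was 55.2%, 58.3%, 65.8%, 82.7% and 94.9%, and that in YAP-TFE3 replicate 2 was 86.9%, 89.2%, 94.4%, 97.1% and 99.5%. Peaks in these 2 lists and in TAZ-CAMTA1 replicate 1 thus became more frequent with the number of excluding lists that held the region. YAP-TFE3 replicate 1 did not follow this order throughout, with 2.07% at 0 excluding lists and 1.5% at 1.

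**Figure D1:**
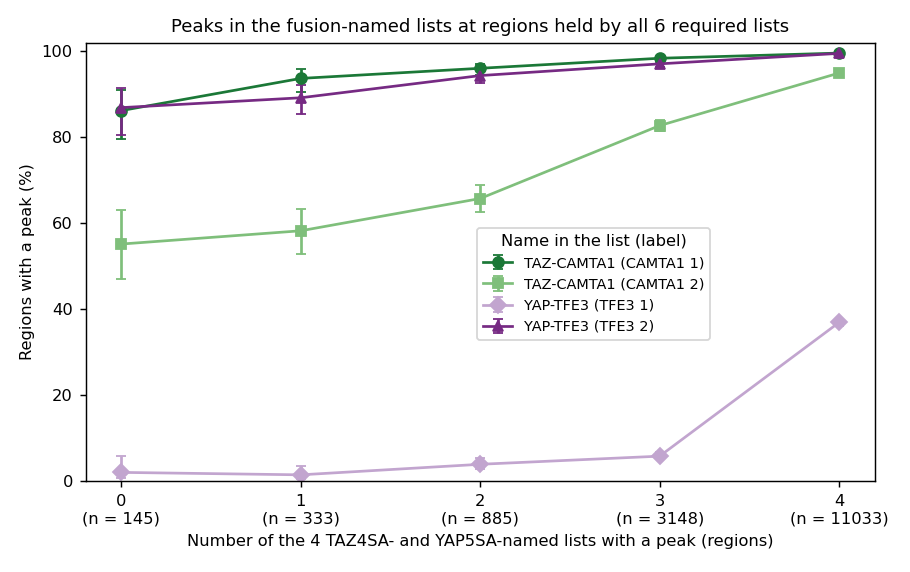
Share of regions (%, vertical axis) with a peak in each of the 4 fusion-named lists, over regions with a peak in all 6 required lists, by the number of the 4 TAZ4SA- and YAP5SA-named lists with a peak (horizontal axis); points are shares in 1 list, bars are Wilson 95% intervals over regions, and the leftmost points are the 145 regions. TAZ-CAMTA1 replicate 1 and YAP-TFE3 replicate 2 sit at 86.2% and 86.9% there, and YAP-TFE3 replicate 1 at 2.07%.

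In the reverse set, peaks in the same 4 fusion-named lists were rare. Of the 148 regions with a peak in all 4 excluding lists and none of the 6 required lists, 2 (1.35%, 0.371 to 4.79) had a peak in TAZ-CAMTA1 replicate 1 and 0 in replicate 2, where 3 counts of the total, taken as the limit for a count of 0, allow a share of up to 2.03%. YAP-TFE3 replicate 2 had a peak at 7 (4.73%, 2.31 to 9.44). A peak in any fusion-named list was found at 9 of the 148 (6.08%). Among all 13542 regions with a peak in the 4 excluding lists the shares were 92.6% and 82.7% for TAZ-CAMTA1 replicates 1 and 2, 30.2% and 92.7% for YAP-TFE3 replicates 1 and 2, and 95.2% for any of the 4. The 148 regions were thus far below their background, whereas the 145 stood at 96.6% against 99.7%. YAP-TFE3 replicate 1 had a peak at 0 of the 148 regions and 3 of the 145. The other 3 fusion-named lists had a peak at 55.2% to 86.9% of the 145 regions and at 0% to 4.73% of the 148. The 148 regions had to be absent from 6 lists, among them the EV-named lists of 102009 and 98992 peaks. The 145 had to be absent from 4 lists of 21748 to 57505 peaks. The 2 rules thus differ in the number and length of the lists without a peak, and the shares are not directly comparable. The strength of the 2 sets was not matched either, and the contrast was not tested.

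Most of the regions had peaks for both fusions, though fewer than the background. At 116 regions (80%) a peak was found in at least 1 TAZ-CAMTA1 list and at least 1 YAP-TFE3 list, against 97.9% of the 15544 regions. At 69 regions peaks were in exactly both TAZ-CAMTA1 lists and YAP-TFE3 replicate 2, and at 40 in exactly TAZ-CAMTA1 replicate 1 and YAP-TFE3 replicate 2. Whatever the remaining lists held, the numbers were 71 and 111. TAZ-CAMTA1 lists alone held 14 regions (9.66%), YAP-TFE3 lists alone held 10 (6.90%), and 5 (3.45%) had no peak in any of the 4. All 3 shares were above the background. Of the 15544 regions, 250 (1.61%) lacked a peak in both YAP-TFE3 lists, whatever the TAZ-CAMTA1 lists held. Both TAZ-CAMTA1 lists lacked a peak at 124 (0.798%), and all 4 lists lacked one at 40. The background shares of the patterns with 69 and 40 chosen regions were not computed. The joint counts of the chosen regions come from the same regions and are given as a description.

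Where a peak was present in a fusion-named list it ranked lower than at shared regions. The median rank percentile of the 145 regions' peaks was 54.0 in TAZ-CAMTA1 replicate 1 and 53.1 in YAP-TFE3 replicate 2, with 74 of 125 (59.2%) and 70 of 126 (55.6%) in the stronger 50% of the list. At the 11033 shared regions 97.7% and 97.0% of the peaks were in that part. In TAZ-CAMTA1 replicate 2 the median was 33.5, and 15 of 80 were in the stronger 50%. The 3 peaks of YAP-TFE3 replicate 1 had a median of 22.5, and 0 were in the stronger 50%. At the summit these peaks held a median of 18 fragments (9 to 44) in TAZ-CAMTA1 replicate 1, 11 (7 to 29) in replicate 2 and 14 (7 to 28) in YAP-TFE3 replicate 2. The corresponding medians at the 11033 regions shared by all 10 of the required and excluding lists were 42, 22 and 33 fragments where a peak was present.

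**Figure D2:**
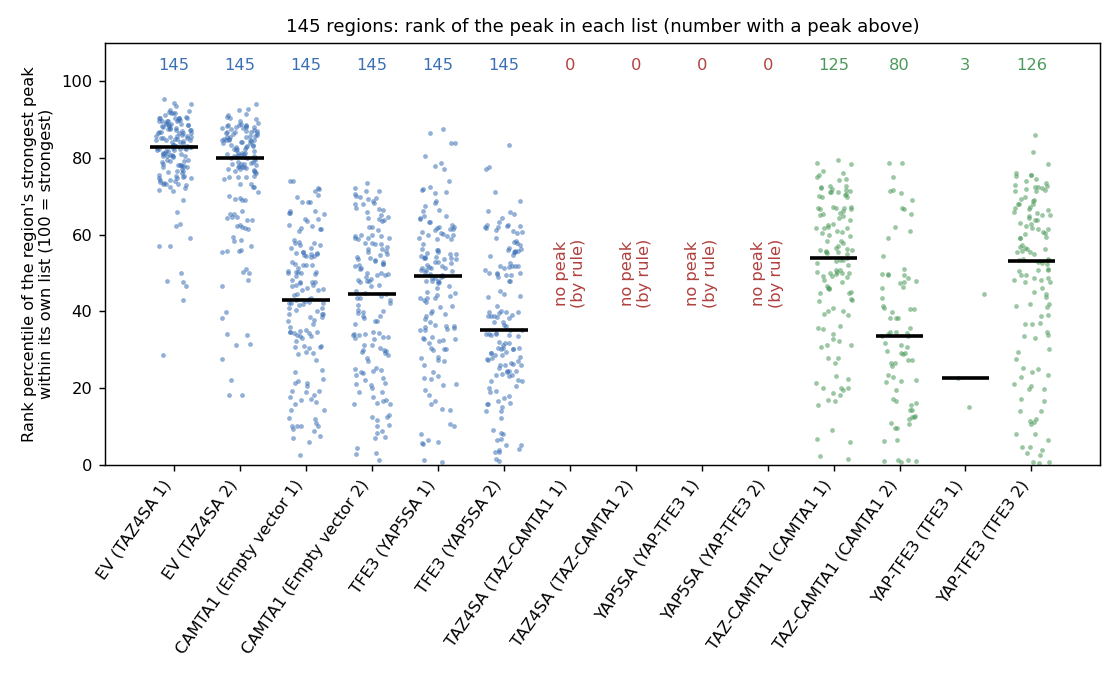
Rank percentile of the strongest peak of each of the 145 regions within its own list (vertical axis, 100 is the strongest) for the 14 lists (horizontal axis, name and then label); each point is a region, black lines are medians, and the numbers above count the regions with a peak. Medians were 82.9 and 79.8 in the EV-named lists, 35.2 to 49.1 in the other required lists, and 54.0 and 53.1 in TAZ-CAMTA1 replicate 1 and YAP-TFE3 replicate 2; percentiles depend on list length, and the EV-named lists are the longest.

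The required lists, by which the regions were selected, held these peaks below the strength of shared regions. Summits had a median of 32 fragments (11 to 95) and 20 (8 to 49) in EV replicates 1 and 2, and of 15 (9 to 26) and 16 (9 to 30) in CAMTA1 replicates 1 and 2. In TFE3 replicates 1 and 2 the medians were 22 (12 to 71) and 17 (10 to 47). At the 11033 shared regions the 6 medians were 76, 49, 36, 45, 43 and 36 fragments in the same order, so the 145 regions carried fewer fragments at the summit in every required list.

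Set against the shared regions of the same list, the medians were 42.1% and 40.8% in EV, 41.7% and 35.6% in CAMTA1, and 51.2% and 47.2% in TFE3. These are values the rule used, and the fewest fragments at which a peak was called differ between lists, so the 6 percentages are not ranked. Counted from the strongest peak of a list, the median rank was 17457 and 19951 in EV, 24449 and 27647 in CAMTA1, and 15828 and 19598 in TFE3. Rank numbers and percentiles both depend on the length of a list, so neither is used to order the EV-named (labelled TAZ4SA) and TFE3-named lists. The median fold enrichment was 8.38 and 7.02 in EV and 3.68 to 4.26 in the other 4 lists. The median −log10 q, the caller's significance after correction, was 19.9 and 12.4 in the EV-named lists and 4.24 to 7.08 in the other 4.

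The rule favoured weak regions. Over the 6 required lists, the rank percentile of the weakest peak had a median of 22.3 for the 145 regions (0.632 to 61.1), of 25.6 for the 333 regions with a peak in 1 excluding list, and of 73.8 for the 11033 with a peak in all 4. It was above 50 for 8 of the 145 regions, against 80.5% of the 11033. When the 15544 regions were divided into 5 equal classes by this value, the classes held 111, 31, 3, 0 and 0 of the 145 regions from weakest to strongest, or 3.57%, 0.997%, 0.0965%, 0% and 0% of each class. The 2 strongest classes of H3K27ac regions in the required lists thus held no region from which all 4 excluding lists were missing.

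**Figure D3:**
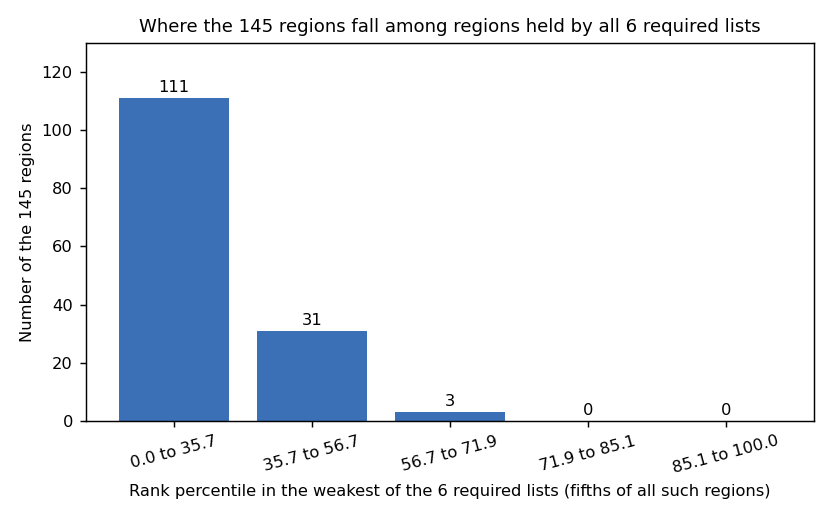
Number of the 145 regions (vertical axis) in each of 5 equal classes of the 15544 regions with a peak in all 6 required lists, ordered by the rank percentile in the weakest of the 6 lists (horizontal axis, range of each class). The weakest class holds 111, the next 31, the middle 3 and the strongest 2 none.

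Strength varied with presence in the fusion-named lists too. In the weakest class, TAZ-CAMTA1 replicate 1 had a peak at 95.5% of all regions and at 92 of the 111 chosen ones (82.9%), replicate 2 at 67.4% and at 55 (49.5%), and YAP-TFE3 replicate 2 at 93.8% and at 98 (88.3%). In the next class the shares were 99.1% of all regions and 30 of the 31 chosen ones (96.8%), 85.7% and 22 (71.0%), and 98.4% and 25 (80.6%), in the same order of lists. The chosen regions were thus below all regions of the same class in these 3 lists in both classes. The classes are broad, and strength was not matched within them. The 3 chosen regions of the middle class had a peak in all 3 lists, and YAP-TFE3 replicate 1 had a peak at 1 of the 111, against 1.70% of all regions, and at 2 of the 31 (6.45%), against 4.63%. The gaps differed between classes and were not tested. When the 145 regions were divided at their median strength, TAZ-CAMTA1 replicate 1 had a peak at 62 of the 72 weaker and 63 of the 73 stronger. TAZ-CAMTA1 replicate 2 had a peak at 40 (55.6%) and 40 (54.8%), and YAP-TFE3 replicate 2 at 65 and 61. The split at the median thus showed little gap in either TAZ-CAMTA1 list. It showed fewer peaks among the stronger regions in YAP-TFE3 replicate 2 (83.6% against 90.3%). The 2 weakest classes above instead gave more peaks with strength in both TAZ-CAMTA1 lists.

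At the threshold itself the peaks were faint. The lowest −log10 q that kept a region inside was 1.34, in TFE3 replicate 2 at chr5:142442065-142448697, followed by 1.37 at chr22:31497526-31500218. Among regions that were left out for a single peak in an excluding list, the lowest was 1.33, in YAP5SA replicate 2 at chr14:76446347-76449571. Of the 333 regions with 1 such peak, the peak was in YAP5SA replicate 1 at 171, in TAZ4SA replicate 2 at 109, in YAP5SA replicate 2 at 50 and in TAZ4SA replicate 1 at 3. A further 296 regions had no excluding peak but missed 1 required list, which was TFE3 replicate 2 at 96, CAMTA1 replicate 1 at 87 and an EV-named list at 5. Coordinates throughout are 1-based on GRCh37 (hg19), and genes are not named because no annotation of that build was used.

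The 10 regions with the strongest weakest peak are the clearest examples of the pattern. The first, chr12:51317048-51320023, had summits of 51 and 28 fragments in EV replicates 1 and 2, 23 and 19 in CAMTA1, 39 and 26 in TFE3, 23 and 13 in TAZ-CAMTA1, and 19 in YAP-TFE3 replicate 2. The second, chr12:31057211-31068382, reached 95 and 36 fragments in EV, 18 and 20 in CAMTA1, 53 and 27 in TFE3, 28 and 14 in TAZ-CAMTA1, and 20 in YAP-TFE3 replicate 2. Neither had a peak in YAP-TFE3 replicate 1.

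Further examples had 41 or 71 fragments in TFE3 replicate 1. At chr14:103726192-103727751 the summits held 38 and 24 fragments in EV, 18 and 18 in CAMTA1, 41 and 26 in TFE3, 27 and 17 in TAZ-CAMTA1, and 20 in YAP-TFE3 replicate 2. At chr5:36299919-36306511 they held 70 and 43 in EV, 26 and 30 in CAMTA1, 71 and 47 in TFE3, 44 and 23 in TAZ-CAMTA1, and 26 in YAP-TFE3 replicate 2. That region had the largest counts in TFE3 and TAZ-CAMTA1 among the 10, as the plot of their summit fragments shows. Fragments are not scaled for library size, so the counts of different lists stand side by side and are not compared.

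**Figure D4:**
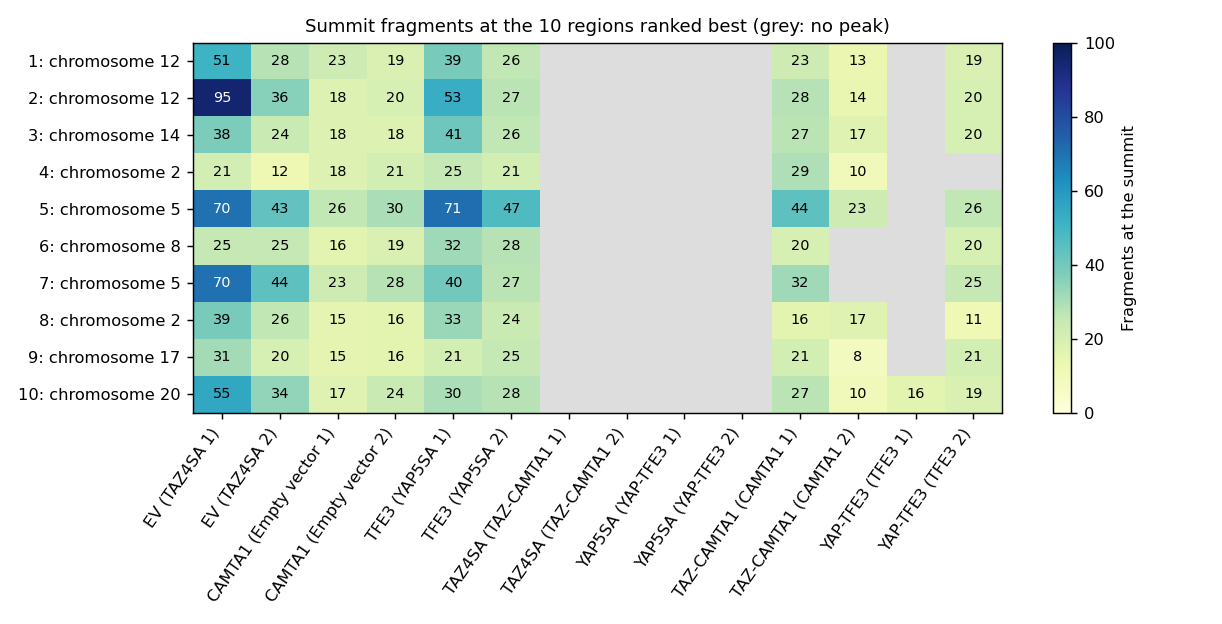
Fragments at the summit (colour and number) of the strongest peak in each of the 14 lists (columns, name and then label) for the 10 regions with the highest rank percentile in their weakest required list (rows, in that order); grey means no peak. Required lists hold 12 to 95 fragments, and TAZ-CAMTA1 replicate 1 has a peak at all 10.

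A few regions broke from the common pattern in the fusion-named lists. All 4 fusion-named lists had a peak at 2 regions, chr20:51615597-51623444 and chr5:58651373-58655805. At the latter the summits held 33 and 20 fragments in TAZ-CAMTA1 and 21 and 28 in YAP-TFE3. In the 6 required lists their weakest peaks had percentiles of 49.7 and 48.0.

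Both TAZ-CAMTA1 lists and neither YAP-TFE3 list had a peak at 4 regions. At chr2:106102632-106104815, the strongest of them, the summits held 29 and 10 fragments in TAZ-CAMTA1, 21 and 12 in EV, 18 and 21 in CAMTA1, and 25 and 21 in TFE3. The reverse, both YAP-TFE3 lists and no TAZ-CAMTA1 list, held at 1 region, chr8:135905167-135907008, with 13 and 18 fragments. With the 2 regions above, it made 3 that had a peak in the list of 5721 peaks while each of the 4 excluding lists, with at least 21748 peaks, had none. Such regions were too few to compare the fusions with.

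No fusion-named list had a peak at 5 of the 145 regions (3.45%), against 40 of the 15544 with all 6 required peaks. These 5 were then absent from all 8 lists named for an active or fused TAZ or YAP. The strongest was chr8:101169583-101170767, with 13 and 10 fragments in EV, 25 and 26 in CAMTA1 and 17 and 18 in TFE3. A further such region, chr9:101609800-101610711, held 26 and 21 fragments in EV, 13 and 13 in CAMTA1 and 20 and 16 in TFE3.

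The 145 regions were spread over 22 chromosomes. They were 641 to 21728 bp wide with a median of 3386 bp, against 5733 bp for the 11033 shared regions. Chromosome 20 held 11 of its 494 regions with a peak in all 6 required lists (2.23%), chromosome 10 held 12 of 600 (2.0%) and chromosome 18 held 6 of 301 (1.99%), all above the 0.933% of the whole set. Of the 11 on chromosome 20, 7 lay in 2 groups that are described below. These shares were not tested, and neighbouring regions are not independent.

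The distance to peaks of the excluding lists varied widely. The nearest peak of any excluding list was a median of 9376 bp away (47 to 349074 bp), within 5000 bp at 40 regions (27.6%) and beyond 50 kb at 17. The nearest region shared by all 10 lists was a median of 50693 bp away. These distances were not set beside those of other regions. Of the 10 regions with the strongest weakest peak, chr8:77644816-77645864 lay farthest from an excluding peak, at 265067 bp, and held 25 and 25 fragments in EV, 16 and 19 in CAMTA1 and 32 and 28 in TFE3.

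Some regions lay together. Another of the 145 lay within 200 kb of 24 regions, which formed 10 groups, and within 50 kb of 13. This spacing was not set beside that of other H3K27ac regions, so the grouping is not read as particular to the 145. The closest pair, chr3:149262141-149268284 and chr3:149268303-149276194, was separated by 18 bp and formed a stretch of 14.1 kb. The stretch held no other merged region, so the rule itself left it without excluding peaks. Across this pair the lists named EV had 4 and 7 peaks, CAMTA1 3 and 4, TFE3 4 and 2, TAZ-CAMTA1 4 and 2, and YAP-TFE3 0 and 4. When regions within 1000 bp were joined, 123 met the rule.

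The largest group was on chromosome 20, where 5 of the 145 regions lay within 164.5 kb, at chr20:51615597-51780111. Lists named EV had 39 and 46 peaks in this stretch, CAMTA1 15 and 17, TFE3 20 and 18, TAZ-CAMTA1 21 and 6, and YAP-TFE3 1 and 18. The excluding lists had 0 and 2 peaks (TAZ4SA) and 2 and 1 (YAP5SA). Of the 40 merged regions in the stretch, 28 had required peaks in the EV-named lists alone, so that the CAMTA1- and TFE3-named lists lacked them too. The only other region there with all 6 required peaks, chr20:51681819-51689637, had a peak in 2 excluding lists, and its neighbour chr20:51690051-51700498 had one in 3. The flanking regions chr20:51587642-51606259 and chr20:51606519-51615086, with all 6 required peaks, had a peak in 1 and 2 excluding lists.

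With 50 kb added on each side, the EV-named lists covered 154.3 and 123.5 kb of this domain, CAMTA1 21.7 and 18.1 kb, TFE3 39.8 and 24.3 kb, TAZ-CAMTA1 32.6 and 10.1 kb, and YAP-TFE3 0.3 and 25 kb. TAZ4SA covered 0 and 2.1 kb and YAP5SA 2.3 and 1.2 kb. The fusion-named lists other than YAP-TFE3 replicate 1 thus covered 10.1 to 32.6 kb, the CAMTA1- and TFE3-named lists 18.1 to 39.8 kb, and the excluding lists at most 2.3 kb. The domain was picked for holding the most chosen regions, so the cover of required and excluding lists there was partly set by the rule. The cover of other domains was not set beside it. The first of the 5 regions, chr20:51615597-51623444, held 55 and 34 fragments in EV, 17 and 24 in CAMTA1, 30 and 28 in TFE3, 27 and 10 in TAZ-CAMTA1, and 16 and 19 in YAP-TFE3.

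**Figure D5:**
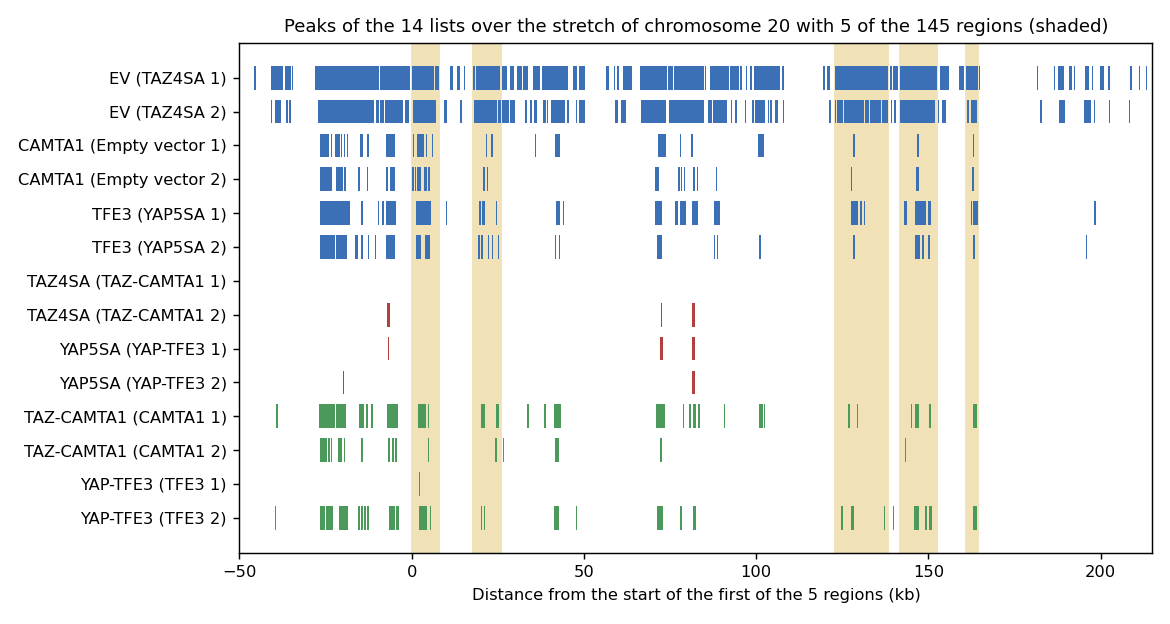
Peaks (bars) of the 14 lists (rows, name and then label) along the chromosome 20 domain, by distance in kb from the start of the first of the 5 chosen regions (shaded). Blue rows are the required lists, red the excluding lists and green the fusion-named lists; the red rows hold 0 to 3 peaks each, and the blue rows 24 to 61.

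Other groups differed from this one. On chromosome 10, 3 regions lay within chr10:126427092-126749879, where the excluding lists had 4 and 8 peaks (TAZ4SA) and 13 and 7 (YAP5SA) and the EV-named lists 24 and 24. At chr20:10151969-10199445, 2 regions lay within 47.5 kb with no peak in TAZ-CAMTA1 replicate 2 or YAP-TFE3 replicate 1. That stretch held no other merged region, so the rule itself fixed the absence of excluding peaks there. The number of excluding peaks in a stretch thus differed between groups. Each stretch was bounded by regions chosen to lack such peaks, so these numbers were partly set by the rule.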

How the data were processed

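The authors aligned trimmed reads to GRCh37 with BWA-MEM, dropped multi-mapping reads and greylisted regions, called H3K27ac peaks with MACS2 on paired fragments and deposited 1 narrowPeak list per library. Its values are the fold enrichment at the summit (a ratio) and −log10 p and −log10 q. The methods state a q limit of 0.1 on pooled replicates, whereas the deposited lists were per library with a lowest −log10 q of 1.30. Peaks were merged over the 14 lists where they overlapped or touched, by at least 1 bp, in Python 3.11.15 (numpy 2.4.6, pandas 2.3.3, scipy 1.17.1). A region's value in a list is that of its strongest peak. Ranks are percentiles of −log10 p within a list. Summit fragments were solved from fold and p, were whole (tolerance 0.01) for at least 99.9% of the solved peaks in each list (0 to 266 peaks a list could not be solved and have no count, 0 of them at the 145 regions), and were tested on simulated data. The regions and comparisons were chosen with earlier results of these data known. Regions named in the text are the 10 with the highest weakest rank percentile, and examples of each pattern, of width and of spacing. Shares carry Wilson 95% intervals. No test was made, as each name has 2 lists and the rule used the peaks. Alternatives were other q limits, equal list lengths, joined regions, a minimum cover, the labels' constructs and leaving out each list. The highest peak end on chromosome 1, 249202155, lies beyond the hg38 chromosome (248956422), so the lists are on GRCh37, and the sequence, start sites and genes of the regions were not analysed here.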

Additional observations from a re-analysis of the deposited data

How the results depend on the processing

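The number of regions, 145, stayed within 1.5 times under a −log10 q of at least 2 (154) or 5 (101), with regions within 1000 bp joined (123), with lists shortened to 21748 peaks (181), and with regions built from the 6 required lists. It was 3 where required peaks had to cover at least 50% of a region and 0 with the constructs of the labels. The share with a peak in both TAZ-CAMTA1-named lists, 51.7%, became 37.6% under the q limit of 5, 62.4% with lists shortened to 21748 peaks and 0% under the cover rule. That for both YAP-TFE3-named lists, 2.07%, became 0% under that q limit, 0% under the cover rule, 5.52% with the shortened lists and 0.813% with joined regions, and the share with any fusion-named peak, 96.6%, became 66.7% under the cover rule. Leaving out 1 list at a time gave 145 to 316 regions, 40.9% to 86.2% for both TAZ-CAMTA1-named lists, 1.18% to 86.9% for both YAP-TFE3-named lists and 89.6% to 97.6% for any. No paired analysis was possible because the result comes from no test. Alternatives that need start sites or motifs were not run. Read depth was not in the lists, so an absent peak can be a weak one; how far depth set the 145 regions was not tested.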
